A study of Mus musculus with 8 samples.

Results

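Type I interferon-stimulated genes were followed in brown adipose tissue (BAT) of mice exposed to cold or fed a high-fat diet (HFD). The set holds 33 genes, listed by symbol, of the 49452 genes in the deposited table. The symbol column gave 32 of them, and Mx1, whose symbol cell is empty, was found by its Ensembl identifier. All 33 were above 0 in all 8 libraries and entered both comparisons and the test of their difference. They comprise Isg15 and its protease Usp18 (2 genes), transcription factors (4), sensors of foreign nucleic acid and their partners (5), RNA-binding effectors of the IFIT and OAS families (7), GTPases of the dynamin-like, guanylate-binding and immunity-related families (8) and other effectors (7).

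Type I interferons are cytokines that cells release on sensing viral nucleic acid. They bind the receptor made of Ifnar1 and Ifnar2, the kinases Jak1 and Tyk2 are activated, and transcription factors that include Stat2 and Irf9 assemble in the complex ISGF3, which binds interferon-stimulated response elements (ISREs) and switches on antiviral genes. Interferon gamma acts on gamma-activated sites (GAS), and many genes of the set, the GTPases Gbp2, Igtp, Irgm1 and Iigp1 among them, also answer to it. In adipose tissue such genes are expressed by adipocytes, endothelial cells and immune cells alike, and BAT itself burns fuel to produce heat.

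The data are RNA-Seq profiles of BAT from male C57BL/6 mice, 8 libraries in 4 groups of 2. The cold experiment compared mice held at 22 °C (replicates 4 and 7) with mice kept for 24 h at 4 °C (replicates 2 and 11), all 10 to 12 weeks old. Its methods describe 20 h in the cold followed by a fast of 4 h, and whether the mice at 22 °C were fasted is not stated. The diet experiment compared mice given a control diet (CD, replicates 6 and 8, called chow in the labels) with mice given HFD (replicates 2 and 6), all 32 weeks old after 28 weeks on the diet. The labels name no transgene or deletion in any group. The sources do not state whether a library is 1 mouse, so that p-values measure the spread between these libraries. Values are the FPKM that the authors computed, which scale the fragments of a gene by transcript length and by the number mapped in its library. The cold and diet experiments differ in age and housing history. Their responses were compared with each other only through their own controls, and rankings of levels over all 8 libraries are descriptive.

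RefSeq promoter windows (GRCm38.p6, 250 bases before to 50 after the start site) were found for 24 of the 33 genes. The core of the ISRE, GAAANNGAAA on either strand, lay in the window of 15 of the 24 (62.5%), against 1064 of the 27001 other genes with a window (3.94%). The GAS core, TTCNNNGAA on either strand, lay in 7 of the 24 (29.2%), against 2575 of 27001 (9.54%). No window was available for Usp18, Dhx58, Zbp1, Oas2, Mx1, Mx2, Iigp1, Rtp4 and Parp14. The stretches below show the ISRE cores, in capitals, of genes from each of several roles described below, 5′ to 3′ on the strand of the gene with 10 bases on either side or, for Oas1a, up to the start site. They are shown because they are the sequence that ISGF3 and the interferon regulatory factors recognise. Overlapping cores are written as 1 run, and a core that lies on the opposite strand is printed as its reverse complement.
Isg15 (chr4:156200865-156200906, minus strand): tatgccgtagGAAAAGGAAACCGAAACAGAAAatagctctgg
Stat2 (chr10:128270266-128270295, plus strand): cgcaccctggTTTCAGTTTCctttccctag
Ifit1 (chr19:34640775-34640823, plus strand): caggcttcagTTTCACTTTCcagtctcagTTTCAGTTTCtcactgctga
Ifit3 (chr19:34583363-34583426, plus strand): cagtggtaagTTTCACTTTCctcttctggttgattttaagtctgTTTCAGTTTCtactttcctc
Oas1a (chr5:120907526-120907555, minus strand): cccttctcggGAAATGGAAACTGAAAatct
Gbp2 (chr3:142620594-142620623, plus strand): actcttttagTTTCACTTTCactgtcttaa
Gbp3 (chr3:142559989-142560024, plus strand): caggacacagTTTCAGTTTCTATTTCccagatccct
Gbp7 (chr3:142530273-142530302, plus strand): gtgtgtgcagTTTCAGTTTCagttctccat
Igtp (chr11:58199512-58199541, plus strand): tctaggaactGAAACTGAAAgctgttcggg
Rsad2 (chr12:26456553-26456582, minus strand): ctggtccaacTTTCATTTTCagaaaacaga

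Isg15 held 3 overlapping cores, Gbp3 and Oas1a 2 overlapping ones each, and Ifit1 and Ifit3 2 separate ones each. The stretch of Gbp2 overlaps an exon of a Gbp2 transcript in GENCODE M21. The GAS core was found in Irf1, Ifit2, Oas1a, Gbp7, Igtp, Bst2 and Ifi35. A match is a description of the sequence and was not tested for binding.

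**Figure D1:**
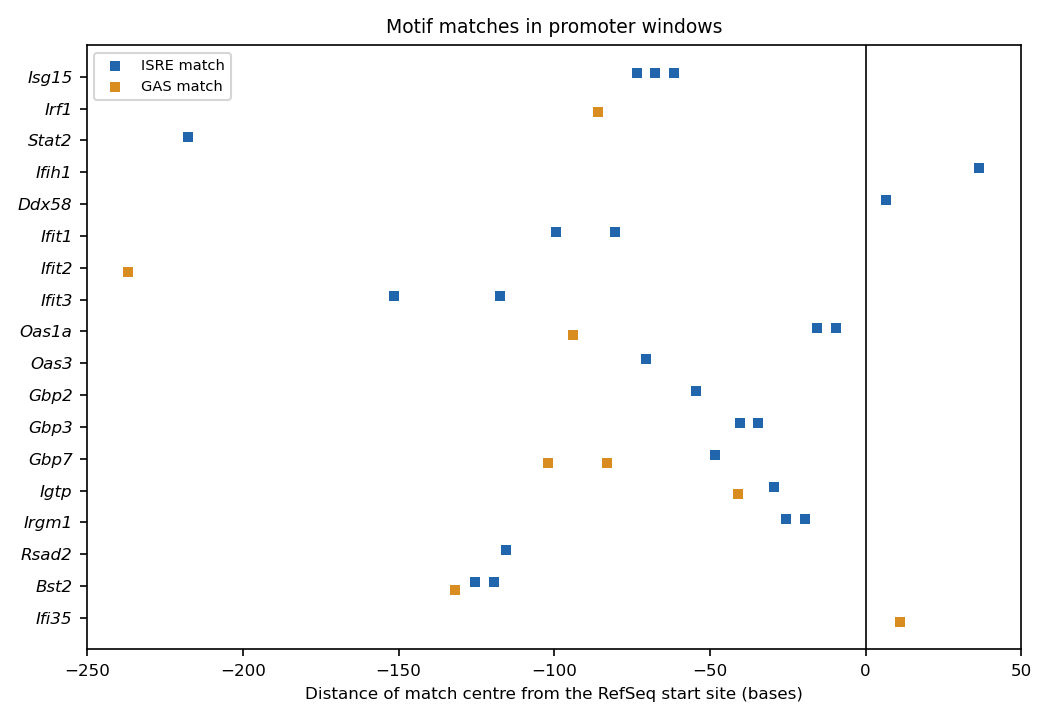
Distance in bases of each ISRE and GAS core from the RefSeq start site (vertical line at 0), for the 18 genes of the set with a match of either kind in their window. ISRE cores (blue) lay before the start site in 13 of the 15 genes that had one, and after it in Ddx58 and Ifih1.

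All of these transcripts had fragments in every library, but the rarest had few. The fewest fragments by the estimate described under the processing were 14 for Isg15 in 4 °C replicate 2, 20 for Mx1 in CD replicate 8 and 28 for Oas3 in CD replicate 8. Libraries differ in ways that cross the groups and in ways that follow them. The satellite-repeat gene Gm10800 was above 100 FPKM in HFD replicate 2, CD replicate 8, 4 °C replicate 11 and 22 °C replicate 4, and at most 4.13 FPKM in the remaining library of every group. All 2613 genes of the X and 1570 of the Y chromosome are listed at 0 in both 22 °C libraries and CD replicate 6, and they were left out of the tests. At 4 °C, 781 (replicate 2) and 840 (replicate 11) X genes were above 0, so that this difference runs with temperature. Of 37 mitochondrial genes, 0 and 1 were above 0 at 22 °C and 15 in each 4 °C library. Summed FPKM over the table was 214790 and 351150 at 22 °C and 759450 and 623160 at 4 °C. It was 526720 in CD replicate 6 and 743480 in CD replicate 8. The part of these differences in the results was not tested. None of the 33 genes is X-linked, Y-linked or mitochondrial. All 10 brown adipocyte markers were present in every library, with a summed level of 7143 to 17841 FPKM, and Ucp1 ranged from 699.1 to 6462 FPKM. Skeletal muscle transcripts were also present, with 10 markers summing to 564.5 and 115.2 FPKM at 22 °C, 4531 and 1970 FPKM at 4 °C, 572.1 and 1497 FPKM under CD, and 183.5 and 15.4 FPKM under HFD.

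The 33 genes were low to moderately expressed in BAT. Their mean FPKM over the 8 libraries had a median of 3.40 and ran from 0.255 (Oas3) to 11.2 (Gbp2). Their summed level was 108 and 126 FPKM at 22 °C, 61.3 and 55.4 FPKM at 4 °C, 144 and 51.6 FPKM under CD, and 157 and 245 FPKM under HFD. The lowest library for a gene was CD replicate 8 for 14 genes, 4 °C replicate 11 for 11 and 4 °C replicate 2 for 8. The highest was HFD replicate 6 for 26 genes, HFD replicate 2 for 4 and 22 °C replicate 7 for 3. The 3 libraries in which the set was lowest were also the 3 with the most skeletal muscle transcripts. Their part in the results was not tested. In bulk tissue, fewer cells of a type and less RNA per cell cannot be told apart.

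**Figure D2:**
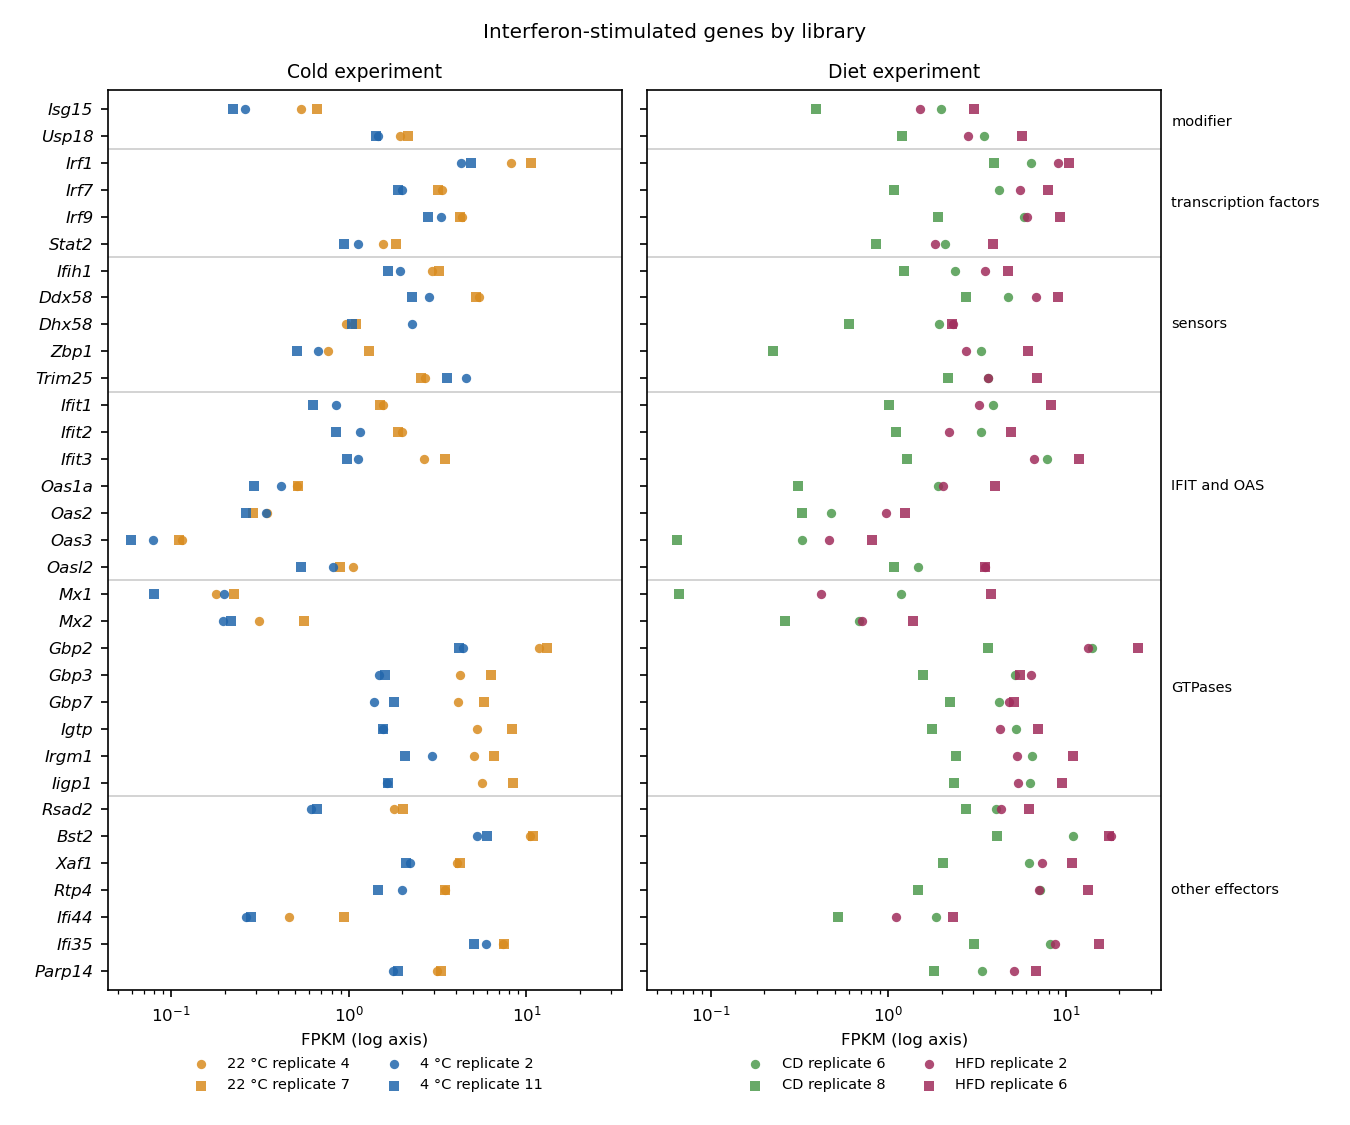
FPKM (log axis) of each of the 33 genes in each library, grouped by role, with the cold experiment on the left and the diet experiment on the right. At 4 °C (blue) 29 genes lay below both 22 °C libraries (orange), and CD replicate 8 (green squares) lay below CD replicate 6 (green circles) for all 33.

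The first question was how the set responds to acute cold. After 24 h at 4 °C, 31 of the 33 genes had lower levels than at 22 °C, and the exceptions were the sensor Dhx58 and the ubiquitin ligase Trim25. The GTPases Gbp2 and Iigp1 passed the threshold (limma on log2(FPKM + 1), Benjamini-Hochberg adjusted p under 0.05 with at least a 2-fold change) and fell, and no gene of the set rose. Of all 17470 genes tested 0.223% were called lower and 1.22% higher, so that cold calls over the table went mostly upward. Both 4 °C libraries were below both 22 °C libraries for 29 of the 33 genes, where 20.6% of all genes tested were. Oas3, counted among the lower genes, passed the filter on low values only through its 22 °C libraries, which favours that direction. Of the genes of the set with a mean of 1 FPKM or more, 22 of 24 were below in both, where 15.3% of all such genes were. Lower levels in the cold were seen for 39% of all genes tested. At an unadjusted p under 0.05, 21 of the 33 were lower, where 7.26% of all genes tested were. Only Trim25 lay above in both libraries, where 37.9% of all genes did. The median log2 fold change of the set was -0.54, against 0.07 over all genes tested. With median centring or quantile normalisation of the libraries, 31 of the 33 were again lower, where 56.2% and 55.3% of all genes tested were. With 2 libraries against 2, an exact two-sided permutation test of 1 gene cannot go below p = 0.333.

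On the log2(FPKM + 1) scale the 5 largest fold changes were those of GTPases. In mean FPKM, Rsad2 (2.98-fold lower) and Ifit3 (2.92-fold) came before Gbp2 (2.89-fold). The guanylate-binding and immunity-related GTPases assemble on membranes around intracellular pathogens. The 8 GTPases in the set, Mx1 and Mx2 included, were all lower at 4 °C, with a median log2 fold change of -1.24 and a median 2.99-fold lower mean FPKM. Gbp2, a guanylate-binding protein gene (chromosome 3, 142620602 to 142638008, GRCm38), was at 11.8 and 13.1 FPKM at 22 °C and at 4.42 and 4.19 FPKM at 4 °C. Both libraries of each group lay close together and far from the other group. Its mean was 12.4 ± 0.899 FPKM (SD, n = 2) at 22 °C and 4.30 ± 0.166 FPKM at 4 °C, and its log2 fold change was -1.34 (SE 0.18, limma adjusted p = 0.0442, between 0.0174 and 0.213 over the alternatives). Iigp1, which encodes an immunity-related GTPase that attacks vacuoles of parasites, was at 5.63 and 8.41 FPKM at 22 °C and at 1.64 and 1.67 FPKM at 4 °C. The 22 °C libraries differed from each other more than the 4 °C libraries did, and the groups did not overlap. Its log2 fold change was -1.57 (SE 0.23, limma adjusted p = 0.0466, between 0.0213 and 0.333 over the alternatives).

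A further 3 GTPases were more than 2-fold lower on the log2(FPKM + 1) scale with groups that did not overlap but missed the adjusted threshold. These with Gbp2 and Iigp1 were the 5 genes of the set whose log2 fold change passed -1, as it did for 0.836% of all genes tested. In mean FPKM 15 of the 33 were at least 2-fold lower, where 6.14% of all genes tested were. Igtp, an immunity-related GTPase of the endoplasmic reticulum (chromosome 11, 58199556 to 58207591), was at 5.26 and 8.33 FPKM at 22 °C and at 1.55 and 1.56 FPKM at 4 °C. The log2 fold change was -1.58 (SE 0.24, limma adjusted p = 0.0511). Igtp shares 7974 bases of the same strand with the gene model of Irgm2, so that the authors' counting may have split reads between them. Gbp3 (chromosome 3, 142560026 to 142573209) was at 4.24 and 6.34 FPKM at 22 °C and at 1.48 and 1.59 FPKM at 4 °C, with a log2 fold change of -1.29 (SE 0.22, limma adjusted p = 0.0560). Gbp7 (chromosome 3, 142530342 to 142550149) was at 4.12 and 5.76 FPKM at 22 °C and at 1.39 and 1.80 FPKM at 4 °C, with a log2 fold change of -1.19 (SE 0.22, limma adjusted p = 0.0601). Gbp2, Gbp3 and Gbp7 are neighbours on chromosome 3 and related in sequence, and whether reads were shared between them was not tested. Irgm1, which regulates the other immunity-related GTPases and autophagy, was at 5.04 and 6.58 FPKM at 22 °C and at 2.94 and 2.07 FPKM at 4 °C. The dynamin-like GTPases were rare and closer between groups. Mx1 was at 0.179 and 0.227 FPKM at 22 °C and at 0.199 and 0.0795 FPKM at 4 °C, so that its groups overlapped. Its relative Mx2 was at 0.313 and 0.556 FPKM against 0.196 and 0.216 FPKM.

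The calls within the cold comparison moved with the processing. Gbp2, Gbp3, Gbp7, Igtp and Iigp1 were all past threshold with library type (high or low in Gm10800) as a covariate, where 0.601% of all genes were called lower. All 5 lay in the 8 genes of the set called with median centring (0.882% of all genes) and the 10 called with quantile normalisation (1.01%). None was past threshold in a fit of all 8 libraries or without a filter on low values. Leaving out 22 °C replicate 4 left Igtp and Iigp1 past threshold, whereas leaving out 22 °C replicate 7, 4 °C replicate 2 or 4 °C replicate 11 left none. Of all genes tested, 27 were called lower without 22 °C replicate 4 and 32 without 22 °C replicate 7, and without either 4 °C library limma called none of the 17470 in either direction. Within each library type the direction held for the set, with a median log2 fold change of -0.57 between the satellite-high libraries (31 of 33 lower) and of -0.48 between the satellite-low libraries (30 of 33 lower, with Oas2 the added exception). These have 1 library per group and no test.

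The transcription factors of the pathway were lower at 4 °C in all 4 cases, with no overlap between groups and none past threshold. Of all genes tested, 20.6% were below in both 4 °C libraries. Irf1, which is induced by both interferon types, was at 8.23 and 10.7 FPKM at 22 °C and at 4.28 and 4.85 FPKM at 4 °C, a log2 fold change of -0.90 (SE 0.21, limma adjusted p = 0.0822). Irf7, which drives interferon alpha genes, was at 3.36 and 3.17 FPKM against 1.99 and 1.89 FPKM. The ISGF3 subunits Stat2 and Irf9 had log2 fold changes of -0.41 and -0.38.

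The sensors were divided. Ddx58 (RIG-I), a sensor of viral RNA ends, was at 5.38 and 5.20 FPKM at 22 °C and at 2.81 and 2.26 FPKM at 4 °C, and Ifih1 (MDA5), a sensor of long double-stranded RNA, was at 2.95 and 3.21 FPKM against 1.95 and 1.66 FPKM. Zbp1, a sensor of Z-form nucleic acid, was at 0.761 and 1.30 FPKM against 0.670 and 0.508 FPKM. Dhx58 (LGP2), which modulates both RNA sensors, was at 0.964 and 1.10 FPKM at 22 °C and at 2.27 and 1.04 FPKM at 4 °C, so that its higher mean rests on 4 °C replicate 2. Trim25, a ubiquitin ligase that acts on RIG-I, was at 2.68 and 2.54 FPKM at 22 °C and at 4.60 and 3.58 FPKM at 4 °C, both above, with a log2 fold change of 0.49 (SE 0.19, limma adjusted p = 0.199). The models of Dhx58 and its antisense gene Dhx58os overlap by 2637 bases, and whether strand was used in computing FPKM is not stated.

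The IFIT and OAS genes were lower in all 7 cases, with a median log2 fold change of -0.24. Of the 7, 6 were lower without overlap, where 20.6% of all genes tested were. Ifit3, which binds Ifit1 and Ifit2 in a complex that holds back viral RNA from translation, was at 2.64 and 3.48 FPKM at 22 °C and at 1.12 and 0.977 FPKM at 4 °C, a log2 fold change of -0.98 (SE 0.18, limma adjusted p = 0.0603). Ifit1 was at 1.557 and 1.505 FPKM against 0.852 and 0.625 FPKM, and Ifit2 at 1.99 and 1.89 FPKM against 1.15 and 0.847 FPKM. The oligoadenylate synthetases, which make the activator of RNase L, were near or under 1 FPKM in the cold experiment. Oas1a had 0.508 and 0.517 FPKM at 22 °C against 0.413 and 0.292 FPKM at 4 °C, and the groups of Oas2 overlapped at 0.346 and 0.287 FPKM against 0.341 and 0.264 FPKM. Oasl2, an OAS-like gene, was at 1.06 and 0.890 FPKM against 0.816 and 0.539 FPKM. Oas3, counted among these 6, passed the filter on low values through its 22 °C libraries only, so that the filter favoured a lower level at 4 °C. Adding 1 FPKM before the logarithm shrinks the fold changes of such rare transcripts.

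Isg15, a ubiquitin-like protein that is conjugated to others and also secreted, was at 0.541 and 0.662 FPKM at 22 °C and at 0.259 and 0.223 FPKM at 4 °C, 2.50-fold lower in the mean. Usp18, which removes Isg15 and damps the receptor, was at 1.94 and 2.14 FPKM against 1.47 and 1.42 FPKM. The other effectors were lower with no overlap in all 7 cases, where 20.6% of all genes tested were. Rsad2 (viperin), which makes a chain-terminating nucleotide, was at 1.79 and 2.01 FPKM at 22 °C and at 0.614 and 0.665 FPKM at 4 °C, with a log2 fold change of -0.82 (SE 0.13, limma adjusted p = 0.0517). Bst2 (tetherin), which holds budding virions at the cell surface, was at 10.4 and 10.9 FPKM against 5.28 and 6.00 FPKM. Xaf1, Rtp4, Parp14, Ifi44 and Ifi35 had log2 fold changes between -0.73 and -0.38.

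**Figure D3:**
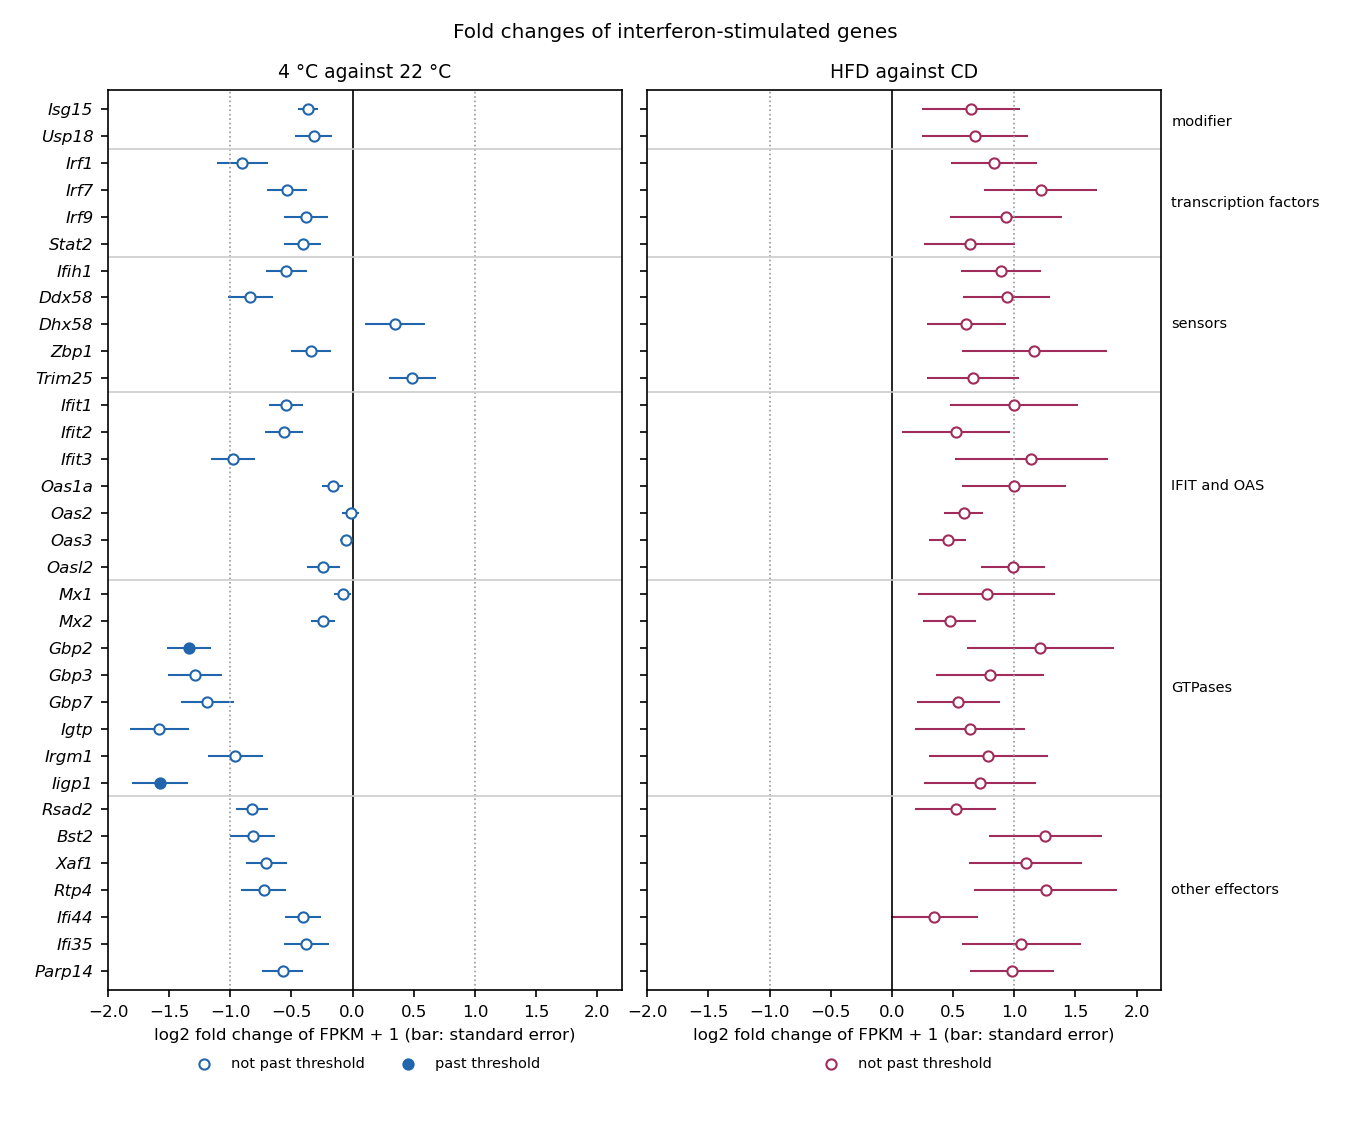
Log2 fold change of FPKM + 1 with its standard error for each of the 33 genes, in the cold (left) and under HFD (right), with the 2-fold limits as dotted lines. Gbp2 and Iigp1 are the only filled points, past threshold in the cold, and all 33 points lie above 0 under HFD, where none is past threshold and the error bars are wider.

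The second question was how the set responds to a diet that makes mice obese. Under HFD all 33 genes had higher mean log2 levels than under CD, and none was past threshold. Higher levels were seen for 79.3% of all genes tested. All 33 were higher also after median centring or quantile normalisation, where 32.5% and 48.6% of all genes tested were. Of all 17535 genes tested 0.0513% were called higher and 0.0171% lower by limma. At an unadjusted p under 0.05, 11 of the 33 were higher, where 12.1% of all genes tested were. Over the alternatives that left out no library, the lowest count was 2, with no filter on low values, where 2427 of all 45146 genes were. The highest was 33, with library type as a covariate, where 5616 of all 17535 genes tested were. It was 3 with median centring, where 671 of all 17535 were, and 6 with quantile normalisation, where 1145 were. The median log2 fold change of the set was 0.80, against 0.18 over all genes tested. With median centring these were 0.48 and -0.14. Both HFD libraries were above both CD libraries for 18 of the 33, where 39.9% of all genes tested were, and after median centring for 9 of the 33, where 12.6% were. Standard errors ran from 0.15 to 0.63, against 0.04 to 0.25 in the cold, and adjusted p from 0.180 to 0.707.

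For the genes of the set the diet libraries lay farther apart within their groups than the cold libraries did, and CD most of all. CD replicate 6 was above CD replicate 8 for all 33 genes, by a median of 1.03 on the log2 scale and at least 2-fold for 19 genes. Over the 10225 autosomal genes that averaged 1 FPKM or more in these libraries, 12.7% were 2-fold apart in either direction, and the median difference was 0.41. On this log2(FPKM + 1) scale no gene of the set was 2-fold apart between the 22 °C libraries or the 4 °C libraries, and 2 were between the HFD libraries. In FPKM itself 24 of the 33 were 2-fold apart under CD, where 28.1% of all genes tested were, 9 under HFD (12.2% of all genes), 2 at 4 °C (Dhx58 and Mx1, 12.5%) and 1 at 22 °C (Ifi44, 9.93%). CD replicate 6 also differed from the other diet libraries in the prefix of its library identifier, a label whose meaning is not stated. The comparison within the prefix that remains, of both HFD libraries with CD replicate 8, had a median log2 fold change of 1.25 and 15 genes past threshold, where 3.18% of all genes tested were called higher. That fit has 1 CD library, which is assumed to vary like the HFD libraries. Without CD replicate 8 the median was 0.31 with none past threshold. With library type as a covariate 8 genes of the set were past threshold (Bst2, Gbp2, Ifi35, Ifit3, Irf7, Rtp4, Xaf1 and Zbp1), where 3.35% of all genes tested were called higher. Each group has 1 library of each type, so that the covariate takes up the gap within groups that CD and HFD share. It also leaves fewer degrees of freedom for the spread. Within library types the set was higher under HFD for 33 of 33 genes in both, with a median of 1.03 between the satellite-high libraries and of 0.63 between the satellite-low libraries. Without HFD replicate 2, Mx1, Oas1a and Zbp1 were past threshold, where 1.31% of all genes tested were called higher.

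On the log2(FPKM + 1) scale at least 2-fold differences were seen for 8 genes of the set, where 3.46% of all genes tested were that much higher, and for 0 after median centring or quantile normalisation. In mean FPKM 18 of the 33 were at least 2-fold higher, where 15% of all genes tested were. Among the other effectors, 3 were more than 2-fold higher on the log2(FPKM + 1) scale with groups that did not overlap. Bst2 (chromosome 8, 71534255 to 71537456) was at 10.98 and 4.11 FPKM under CD and at 17.9 and 17.4 FPKM under HFD. The HFD libraries lay close together, and the CD libraries did not. Its log2 fold change was 1.25 (SE 0.46, limma adjusted p = 0.286, between 0.00787 and 0.935 over the alternatives). Xaf1, a pro-apoptotic partner of XIAP (chromosome 11, 72301629 to 72313733), was at 6.18 and 2.04 FPKM under CD and at 7.38 and 10.9 FPKM under HFD (log2 fold change 1.09, SE 0.46, limma adjusted p = 0.341). Ifi35, an interferon-induced leucine zipper protein gene (chromosome 11, 101448407 to 101458698), was at 8.17 and 3.03 FPKM under CD and at 8.74 and 15.5 FPKM under HFD (log2 fold change 1.06, SE 0.48, limma adjusted p = 0.374). In both, CD replicate 6 lay just under HFD replicate 2. Rtp4, a chaperone of receptors that also restricts viral replication, had the largest fold change of the set on the log2(FPKM + 1) scale, at 1.26 (SE 0.58, limma adjusted p = 0.382). In mean FPKM it was 2.35-fold higher, and the largest was that of Mx1 at 3.39-fold. The groups of Rtp4 overlapped, at 7.18 and 1.47 FPKM under CD and at 7.08 and 13.3 FPKM under HFD. Rtp4 shares 39791 bases with the model of Gm45338 on the same strand. Rsad2 and Parp14, a mono-ADP-ribosyltransferase, were above CD in both HFD libraries at log2 fold changes of 0.52 and 0.98 (1.56-fold and 2.30-fold in mean FPKM), and Ifi44 overlapped between groups at 0.35. Of all genes tested, 39.9% lay above in both HFD libraries.

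The transcription factor Irf7 (chromosome 7, 141262706 to 141266481) was at 4.18 and 1.08 FPKM under CD and at 5.52 and 7.95 FPKM under HFD. Its groups did not overlap, and its log2 fold change was 1.22 (SE 0.46, limma adjusted p = 0.299, between 0.00105 and 0.960 over the alternatives). Irf1 was at 6.35 and 3.93 FPKM against 9.10 and 10.4 FPKM, and Irf9 at 5.79 and 1.90 FPKM against 6.02 and 9.25 FPKM, both without overlap. Stat2 overlapped between groups, at 2.09 and 0.858 FPKM under CD and at 1.84 and 3.89 FPKM under HFD. The RNA sensors Ifih1, Ddx58 and Dhx58 did not overlap, and Zbp1 did. Of all genes tested, 39.9% lay above in both HFD libraries. Zbp1 showed one of the widest gaps within a group, at 3.32 and 0.223 FPKM under CD and at 2.74 and 6.11 FPKM under HFD. Trim25 overlapped between groups, with 3.655 FPKM in CD replicate 6 and 3.65 FPKM in HFD replicate 2, and 2.16 FPKM in CD replicate 8 and 6.91 FPKM in HFD replicate 6.

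The OAS genes were higher in both HFD libraries in all 4 cases, where 39.9% of all genes tested were. The IFIT genes overlapped between groups in all 3. Oasl2, which encodes an OAS-like protein, was at 1.48 and 1.08 FPKM under CD and at 3.52 and 3.51 FPKM under HFD. This was the smallest adjusted p of the set in the diet experiment (log2 fold change 0.99 ± 0.26 SE, adjusted p = 0.180 by limma). Oas2 was at 0.474 and 0.328 FPKM against 0.972 and 1.24 FPKM, Oas3 at 0.328 and 0.0651 FPKM against 0.465 and 0.814 FPKM, and Oas1a at 1.90 and 0.313 FPKM against 2.03 and 4.01 FPKM. The 4 OAS genes were thus 2.73-fold to 3.25-fold higher in mean FPKM. Ifit3 was at 7.88 and 1.28 FPKM under CD and at 6.60 and 11.9 FPKM under HFD, and Ifit1 at 3.89 and 1.01 FPKM against 3.24 and 8.26 FPKM. Ifit2 was at 3.32 and 1.11 FPKM against 2.19 and 4.92 FPKM. Isg15 likewise overlapped, at 1.97 and 0.391 FPKM against 1.51 and 3.03 FPKM, as did Usp18, at 3.49 and 1.201 FPKM against 2.81 and 5.65 FPKM.

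The GTPases that carried the cold comparison showed smaller differences here. Gbp2 was at 14.1 and 3.67 FPKM under CD and at 13.3 and 25.4 FPKM under HFD (log2 fold change 1.21, SE 0.60, limma adjusted p = 0.416). Iigp1 was at 6.27 and 2.36 FPKM against 5.36 and 9.47 FPKM, and Igtp at 5.27 and 1.77 FPKM against 4.27 and 6.97 FPKM. Irgm1 was at 6.43 and 2.43 FPKM against 5.31 and 11.04 FPKM. In each of these, HFD replicate 2 lay below CD replicate 6. Gbp3, Gbp7 and Mx2 did not overlap between groups, with log2 fold changes of 0.80, 0.54 and 0.47. Of all genes tested, 39.9% lay above in both HFD libraries. Mx1 varied most of all, at 1.18 and 0.0667 FPKM under CD and at 0.418 and 3.81 FPKM under HFD. Its CD libraries were thus 17.7-fold apart and its HFD libraries 9.11-fold.

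The difference between the responses was tested directly, as the cold change minus the HFD change in a fit of all 8 libraries. On the deposited scale it was negative for all 33 genes, where 62.5% of all genes tested were, with a median of -1.44 on the log2 scale against -0.09 over all 18894 genes tested, and no gene of the set was past threshold. Of all genes tested 0.296% were called with a negative difference. At an unadjusted p under 0.05 there were 22 of the 33, where 12.3% of all genes tested had a negative difference at that level. Oasl2 (-1.23 ± 0.24 SE, adjusted p = 0.0614 by limma), Ddx58 (-1.77 ± 0.37 SE, adjusted p = 0.0694) and Irf1 (-1.74 ± 0.37 SE, adjusted p = 0.0694) came closest. The sign turned for Trim25 with median centring (0.01), and with 1 library left out for Trim25, Dhx58 or Mx1. With median centring 2 genes of the set were past threshold, where 0.455% of all genes tested were called, and with quantile normalisation 2, where 0.741% were. With library type as a covariate 10 genes of the set were past threshold, where 1.34% of all genes tested were called, and without CD replicate 6 there were 16, where 1.43% were.

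Upstream of the set, the ligands were rare or listed at 0. All 21 interferon genes examined were under the filter, and the highest value of any was 0.0765 FPKM (Ifnk in 22 °C replicate 7). Ifnk was above 0 in every library, with its lowest value, 0.0171 FPKM, in 4 °C replicate 2. Ifnb1 was at 0.0137 FPKM in 22 °C replicate 4 and 0.0180 FPKM in CD replicate 8 and was listed at 0 in the others. Ifng was at 0.0154 and 0.0394 FPKM at 22 °C, 0.0106 and 0 FPKM at 4 °C, 0 and 0.0303 FPKM under CD, and 0.00944 and 0.0418 FPKM under HFD. For scale, 3 fragments on a transcript of 2000 bases correspond to 0.0132 to 0.0181 FPKM. None of these ligands entered the tests, so that a change in them was not tested.

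Of the receptors and JAK-STAT genes 12 of 13 entered the tests, and none was past threshold in either comparison (9 lower at 4 °C, where 39% of all genes tested were, and 12 higher under HFD, where 79.3% were). The receptor chains had log2 fold changes of -0.18 (Ifnar1) and -0.10 (Ifnar2) in the cold and of 0.42 and 0.13 under HFD. Of the sensing genes upstream of interferon 21 entered the tests, none past threshold (12 lower at 4 °C and 21 higher under HFD, against the same shares). Mavs, the mitochondrial adaptor of RIG-I and MDA5, went the other way from the set in the cold, at 11.7 and 13.1 FPKM at 22 °C and at 37.5 and 26.4 FPKM at 4 °C (log2 fold change 1.28 ± 0.24 SE, adjusted p = 0.0619 by limma). Irf3, the factor that Mavs signalling activates, had log2 fold changes of 0.37 and 0.42, and the DNA-sensing adaptor Tmem173 (STING) of -0.05 and 0.69.

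A further list of 56 interferon-stimulated genes, of which 52 entered the cold test, showed 39 lower and 13 higher at 4 °C, where 39% of all genes tested were lower, and 31 below in both libraries, where 20.6% of all genes tested were. These counts include Cxcl11, at 0.192 and 0.307 FPKM at 22 °C and 0.0864 and 0.0734 FPKM at 4 °C. It passed the filter on low values only through its 22 °C libraries, which favours that direction. Tgtp2, Cxcl9, Gbp9 and Tgtp1 were past threshold and fell, where 0.223% of all genes tested were called lower. Tgtp2, a T-cell-specific immunity-related GTPase gene, was at 7.53 and 6.76 FPKM at 22 °C and at 1.55 and 1.93 FPKM at 4 °C (log2 fold change -1.58 ± 0.18 SE, adjusted p = 0.0384 by limma), and its close copy Tgtp1 had -1.24 (adjusted p = 0.0495), with reads that may be shared between them. Cxcl9, a chemokine induced chiefly by interferon gamma, was at 5.41 and 4.48 FPKM at 22 °C and at 1.58 and 1.40 FPKM at 4 °C (-1.25 ± 0.18 SE, adjusted p = 0.0466 by limma), and Gbp9 had -1.24 (adjusted p = 0.0466). Under HFD 51 of 53 were higher, where 79.3% of all genes tested were, and 36 were above in both libraries, where 39.9% were. None was past threshold. The difference between responses was past threshold for Irgm2 (-1.91), Tgtp2 (-2.14), Cxcl9 (-1.77) and Lgals3bp (-2.04), a secreted glycoprotein gene, where 0.296% of all genes tested were called with a negative difference.

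Markers of other cells in the tissue were summed for each library. The 11 macrophage markers summed to 112 and 80.7 FPKM at 22 °C and to 186 and 91.8 FPKM at 4 °C, so that they were not lower in the cold with the set. Under CD they summed to 153 and 59.6 FPKM, and under HFD to 335 and 365 FPKM, higher with the set. All 11 were above in both HFD libraries, where 39.9% of all genes tested were. The 7 neutrophil and monocyte markers summed to 3.63 and 5.25 FPKM at 22 °C, 3.38 and 2.32 FPKM at 4 °C, 11.4 and 4.75 FPKM under CD and 12.004 and 30.2 FPKM under HFD, which in both experiments is the same order of libraries as that of the set. The 12 T and NK cell markers were low, summing to 2.88 and 3.29 FPKM at 22 °C and to 2.0998 and 1.87 FPKM at 4 °C. Under CD they summed to 1.25 and 1.0037 FPKM and under HFD to 2.07 and 2.14 FPKM. Their sums were thus lower at 4 °C and higher under HFD, as those of the set were. In both experiments they too had the same order of libraries as the set. B cell markers summed to 1.14 and 0.938 FPKM at 22 °C and to 0.416 and 0.411 FPKM at 4 °C, lower with the set. They summed to 1.19 and 0.839 FPKM under CD and to 0.866 and 0.671 FPKM under HFD. The 6 plasmacytoid dendritic cell markers ran from 1.02 to 71.8 FPKM, most of it Cox6a2, a gene also expressed in muscle and brown fat. Endothelial markers summed to 176 and 179 FPKM at 22 °C, 193 and 243 FPKM at 4 °C, 135 and 112 FPKM under CD and 179 and 216 FPKM under HFD. The part of these cells in the results was not tested.

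**Figure D4:**
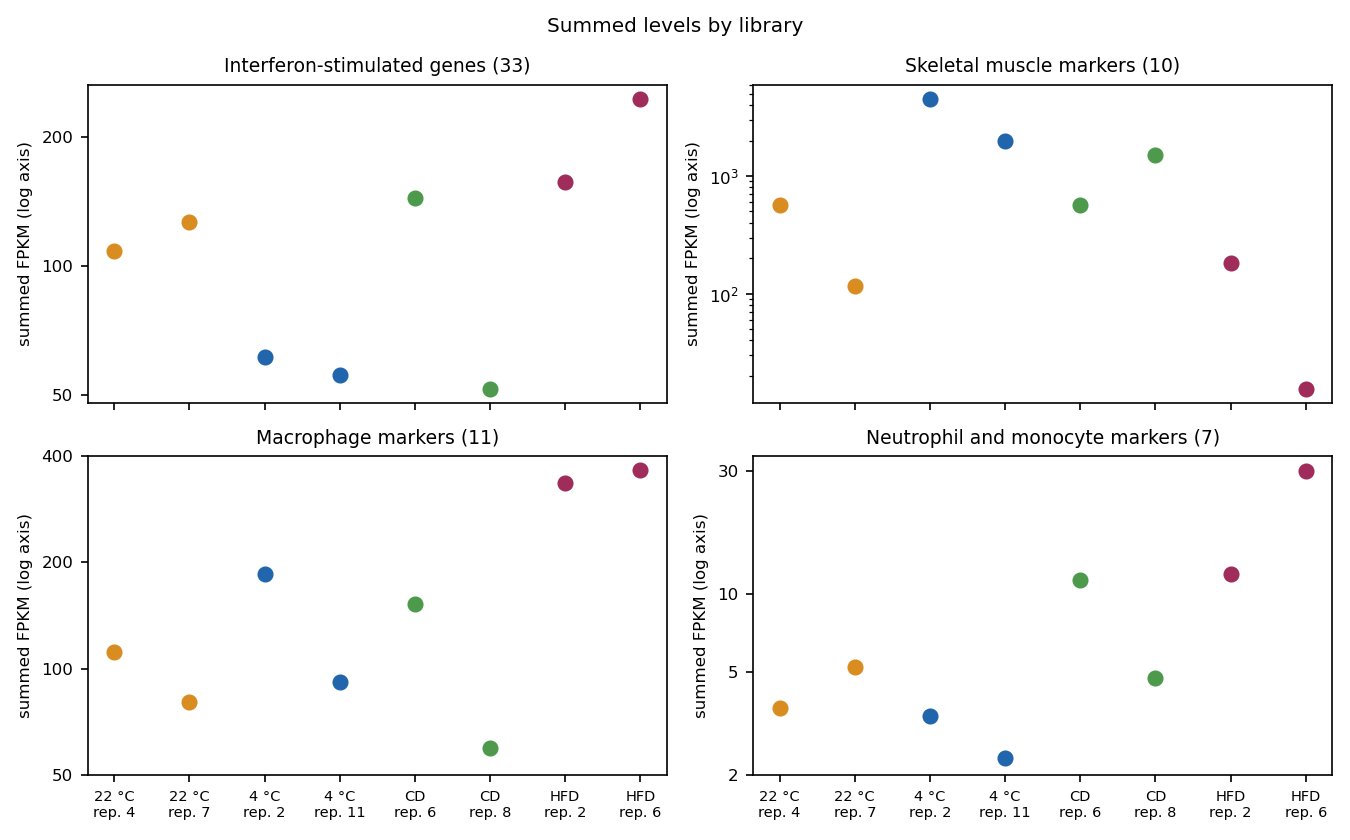
Summed FPKM (log axes) in each library of the 33 interferon-stimulated genes, 10 skeletal muscle markers, 11 macrophage markers and 7 neutrophil and monocyte markers. The set is lowest in both 4 °C libraries and CD replicate 8, between 51.6 and 61.3 FPKM, which are the libraries highest in muscle markers, at 1497 to 4531 FPKM.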

How the data were processed

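Ribosomal RNA was depleted, directional libraries were made and paired ends were sequenced by the authors, who mapped reads to GRCm38.p5 (per the labels, TopHat2 2.0.10) and computed gene FPKM with Cufflinks (2.2.1 per the submitters' processing notes) on Ensembl genes, without pooling. The deposited values are FPKM, and the authors' own test on counts was not used here. The members and gene lists were chosen with earlier results of these data known. Named were all 33 genes by role, per library where past threshold or 2-fold apart without overlap, and listed pathway genes past threshold, or a fixed few where none was.

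The log2 of FPKM + 1 was taken and fitted in limma 3.58.1 (R 4.3.3, intensity trend), each comparison on its own 4 libraries, over autosomal genes with at least 0.1 FPKM in at least 2 libraries. Tests are two-sided and adjusted over all genes tested. Past threshold means an adjusted p under 0.05 with an absolute log2 fold change of at least 1. Adding 1 understates changes of rare transcripts. The fit was tested on simulated data. Other pseudocounts, filters, scalings, covariates and left-out libraries were tried. A covariate leaves fewer degrees of freedom for the spread.

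Depth is not stated. Low values of FPKM were whole multiples of 1 fragment, within 0.1 fragment, for 97.9% to 98.6% of the 1022 to 2565 values tested per library, so that 1 fragment on 2000 bases equals 0.00441 to 0.00604 FPKM. Fragment numbers per gene use its longest GENCODE M21 transcript, are approximate and cover counting error only. Irf8, Ifi203, Mnda and Acta1 were listed but not analysed here. The values of a further listed gene are not reported here. Figures were drawn with matplotlib 3.10.9.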

Additional observations from a re-analysis of the deposited data

How the results depend on the processing

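In the cold, 2 genes of the set were past threshold. The count was 5 with a pseudocount of 0.1, a filter of 1 FPKM, library type as a covariate, or X, Y and mitochondrial genes kept, 8 with median centring, 10 with quantile normalisation, and 0 with no filter or all 8 libraries in 1 fit. Leaving out 1 library gave 0 to 2. The median of the set (-0.54) was -0.91 with a pseudocount of 0.1, -0.72 with a filter of 1 FPKM (over the 24 genes of the set that passed it), and -0.67 with median centring or quantile normalisation, and -0.56 to -0.45 with 1 library left out. Under HFD 0 were past threshold, 8 with library type as a covariate, and 0 to 15 with 1 library left out. Genes of the set without overlap under HFD numbered 18, 9 with median centring and 18 to 33 with 1 library left out, where 47.7% to 68.8% of all genes tested did not overlap in that direction. The cold change minus the HFD change was past threshold for 0 genes, for 2 with median centring (Ddx58 and Oasl2), 2 with quantile normalisation (Ddx58 and Irf1), 10 with library type as a covariate and 0 to 16 with 1 library left out. Its median (-1.44) was -2.07 with a pseudocount of 0.1 and -1.93 to -1.10 with 1 library left out. Over all genes, 252 were called in the cold, 475 with a pseudocount of 0.1, 6 with no filter, 529 with a filter of 1 FPKM, 706 with median centring, 489 with quantile normalisation, 859 with library type as a covariate, 439 in a fit of all 8 libraries, 920 with X, Y and mitochondrial genes kept, and 0 to 244 with 1 library left out. Under HFD 12 were called, 0 with no filter, with quantile normalisation or with X, Y and mitochondrial genes kept, 24 with a filter of 1 FPKM, 744 with library type as a covariate, 75 in a fit of all 8 libraries, and 123 to 752 with 1 library left out. With 1 library left out, Oas2 in the cold ran from -0.058 to 0.027 and turned sign without 22 °C replicate 4 (0.017) or 4 °C replicate 11. Mx1 under HFD ran from -0.10 (without HFD replicate 6) to 1.66 and Ifi44 under HFD from -0.11 (without CD replicate 8) to 0.80. The cold change minus the HFD change turned sign for Dhx58 without 4 °C replicate 11 (0.08), for Dhx58 (0.18) and Trim25 (0.11) without CD replicate 8, and for Mx1 (0.02) and Trim25 (0.21) without HFD replicate 6. Over all alternatives of the 33 genes, direction and call were kept in 347 cases in the cold and 365 under HFD, 27 and 26 were newly past threshold, and 11 calls of Gbp2 or Iigp1 in the cold were lost. The causes were not tested. The within-type medians were added after seeing the data. Depth limits the interferon ligands, all of which lay under the filter on low values, and with 2 libraries a group the spread rests on few degrees of freedom. No paired analysis was possible because 22 °C and 4 °C share no replicate number and CD and HFD share 1.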

Other observations

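Interferon-stimulated genes outside the set went both ways in the cold. Among the abundant ones, Ly6e was at 47.3 and 42.9 FPKM at 22 °C and at 32.1 and 37.0 FPKM at 4 °C, and Ifitm3 at 18.5 and 16.3 FPKM against 13.0 and 11.7 FPKM, both without overlap and not past threshold. Ifi27, an interferon alpha-inducible gene, was at 451 and 669 FPKM at 22 °C and at 765 and 829 FPKM at 4 °C (log2 fold change 0.54 ± 0.35 SE, adjusted p = 0.399 by limma). Its relative Ifi27l2a was at 487 and 278 FPKM at 22 °C and at 459 and 630 FPKM at 4 °C, with overlapping groups, and at 273 and 101 FPKM under CD and 456 and 696 FPKM under HFD. Trafd1, a negative regulator of innate signalling, was at 13.0 and 13.5 FPKM at 22 °C and at 32.7 and 25.6 FPKM at 4 °C (1.07 ± 0.21 SE, adjusted p = 0.0645 by limma). Gbp6, unlike its relatives Gbp2, Gbp3 and Gbp7, was at 4.70 and 6.95 FPKM at 22 °C and at 7.89 and 7.80 FPKM at 4 °C (0.39 ± 0.23 SE, adjusted p = 0.340 by limma). The chemokine Cxcl10 was at 0.678 and 1.06 FPKM at 22 °C and at 0.674 and 1.12 FPKM at 4 °C, while Cxcl9, of the same family, passed the threshold. These genes were picked after their values were seen.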
